A study of Homo sapiens with 45 samples.

Results

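The levels of 10 receptor tyrosine kinase genes that are drug targets or drug candidates in sarcoma were described: MET, KIT, PDGFRA, PDGFRB, AXL, EGFR, ERBB4, ALK, RET and EPHA2. They were taken as a fixed list of gene symbols, all 10 were found, and they stand among 41582 genes to which transcripts could be joined and among 58 receptor tyrosine kinase genes listed for comparison. Poly(A) RNA was sequenced from established human tumour cell lines, 3 libraries per group. Ewing sarcoma was represented by TC71, SKES1, RDES, MHHES1, EW24, EW3 and A673, and osteosarcoma by U2OS, SAOS2, MG63, KHOS, HOS-MNNG and G292, all untreated and unmodified per the labels. A further pair of groups came from A673 cells with sh908, a doxycycline-inducible short hairpin RNA against the potassium channel gene KCNN1, without and with doxycycline; both carry the hairpin construct. HOS-MNNG and KHOS both derive from the line HOS, so they are related samples. Nothing in the labels says that the 3 libraries of a group came from separate cultures, so p-values between groups of libraries measure only the spread between these libraries.

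Receptor tyrosine kinases are membrane proteins that bind a ligand outside the cell, pair up and phosphorylate each other inside it. Adaptors then pass the signal to the RAS-ERK and PI3K-AKT pathways, and negative regulators such as the Sprouty proteins and ERRFI1 dampen it. Ewing sarcoma is a bone and soft tissue tumour whose driver joins EWSR1 to an ETS transcription factor, and osteosarcoma is a tumour of bone-forming mesenchymal cells. Levels below are in TPM, the transcripts of a gene scaled to a fixed total per library, which are scaled per length and can be compared between genes, and mean values are given with the SD over the 3 libraries of a line. Differences are log2 fold changes of scaled counts from edgeR with a standard error (SE), and a gene was called at a false discovery rate (FDR) under 0.05 over all genes tested.

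Library totals ran from 15974173 to 51413254 estimated counts. Of 5 Ewing sarcoma markers 4 were called higher in the Ewing sarcoma lines, and of 5 testable osteoblast markers 2 were called lower (COL1A1 and RUNX2). NR0B1 was near 0 in some Ewing sarcoma lines (lowest line 0.316 TPM), and the late osteoblast gene IBSP reached at most 0.367 TPM in any osteosarcoma line, so that marker was close to absent. KCNN1 checked the hairpin: it was at 37.8, 35.3 and 17.99 TPM in the uninduced and 10.2, 13.7 and 7.75 TPM in the induced libraries, with no overlap. In edgeR it was not called without the replicate number as a block (-1.53, SE 0.52). It was called with the block (-1.46, SE 0.13, FDR 0.0013).

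The tumour types differed in which of the 10 receptors they carried. By line means, MET, AXL, PDGFRA and EGFR were higher in each of the 6 osteosarcoma lines than in any of the 7 Ewing sarcoma lines. Across all genes tested, 2.39% had line levels that were lower in every Ewing sarcoma line in that way. RET and ERBB4 were higher in the Ewing sarcoma lines, at high levels of RET in A673 and low levels of ERBB4 throughout. In all, 6 of the 10 receptors were called, 2 higher and 4 lower in Ewing sarcoma, against 14.4% of all genes tested (5.96% higher and 8.4% lower). KIT, ALK, EPHA2 and PDGFRB were not called by edgeR over the 13 lines, and their line means overlapped between the tumour types.

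**Figure D1:**
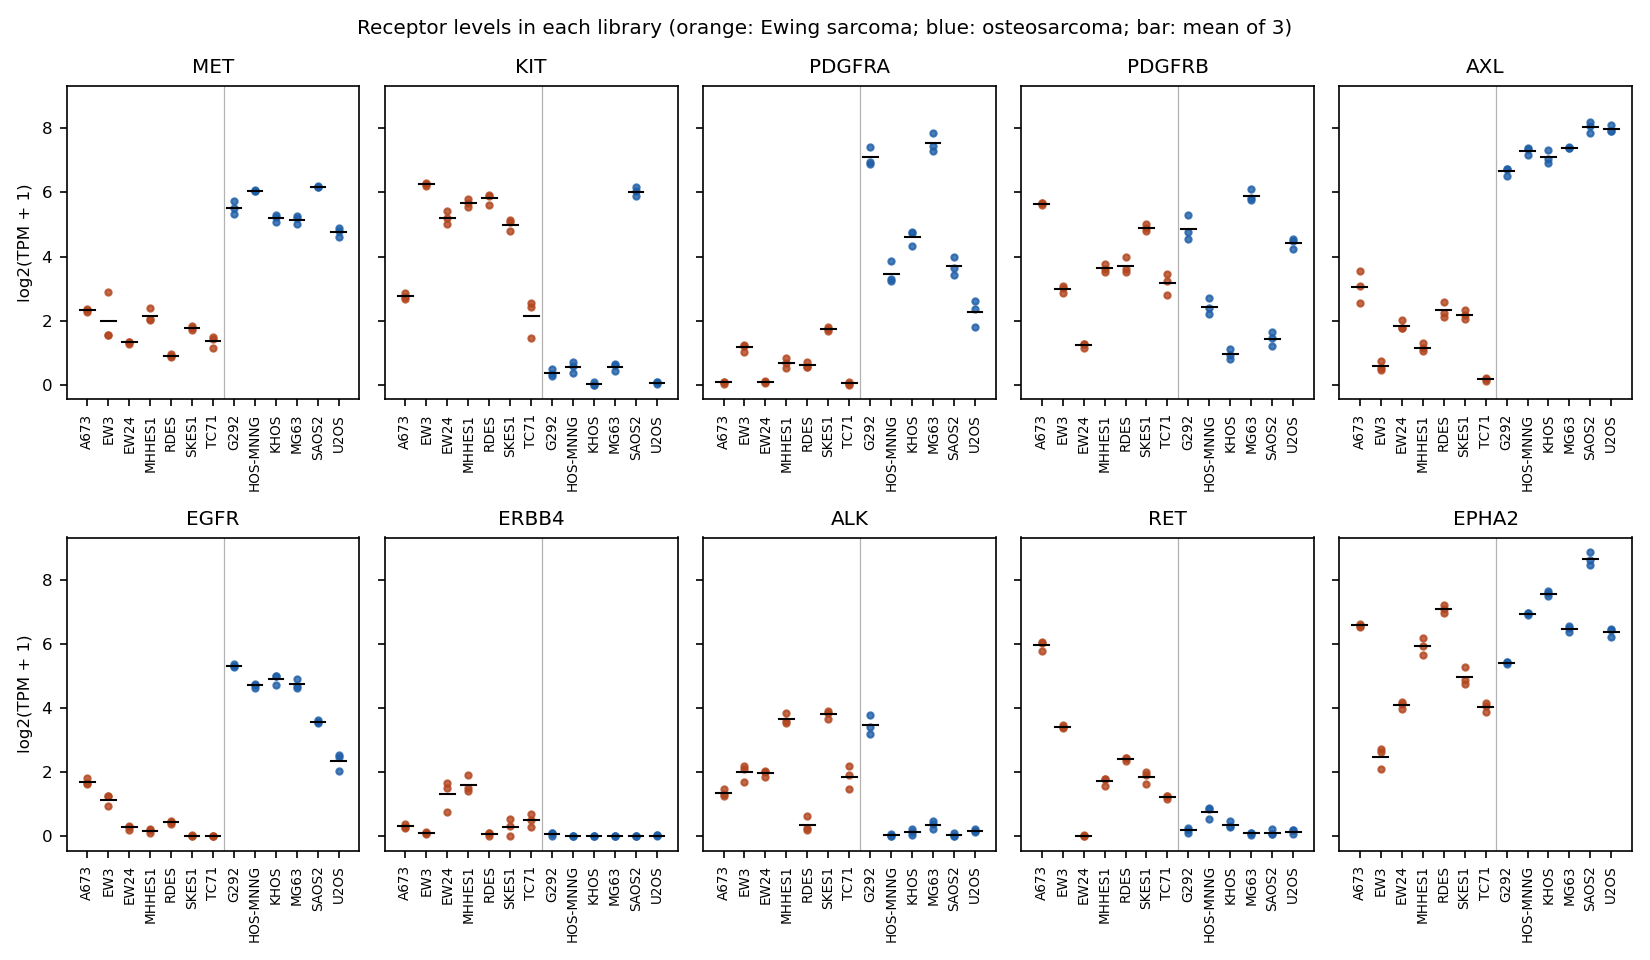
Level of each receptor as log2(TPM + 1) in every library of the 13 lines, with Ewing sarcoma lines in orange on the left, osteosarcoma lines in blue on the right and a bar at the log2 value averaged over the 3 libraries. The line means of MET, AXL, PDGFRA and EGFR separate the tumour types, though PDGFRA libraries of U2OS and SKES1 overlap. Single lines stand apart for KIT (SAOS2), ALK (G292) and RET (A673).

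MET encodes the receptor of hepatocyte growth factor (HGF). It lies on chromosome 7 at 116672196 to 116798377 (GRCh38). MET measured 71.3, 70.7 and 72.1 TPM in SAOS2, 65.4, 64.8 and 66.4 TPM in HOS-MNNG and 38.9, 44.7 and 52.2 TPM in G292. It was 35.7 ± 2.92 TPM in KHOS, 34.6 ± 3.06 TPM in MG63 and 26.2 ± 2.48 TPM in U2OS. The libraries of KHOS and MG63 overlapped, and SAOS2 and HOS-MNNG stood above the rest without overlap. In the Ewing sarcoma lines the lowest mean was 0.886 TPM (RDES), the median 2.41 TPM and the highest 4.02 TPM (A673). One EW3 library had 6.45 TPM of MET while the other 2 had 1.92 TPM each. The difference between the tumour types was -4.32 (SE 0.42, FDR 6.3e-05).

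A shorter MET transcript led in all 3 HOS-MNNG libraries, and sequence from an exon as long as the difference between the leading transcripts is shown here for that reason. The files list 6 MET transcripts. In HOS-MNNG the transcript NM_001324402.2, of 5608 nt, had 35.7, 37.3 and 34.5 TPM, and the longer NM_000245.4, of 6822 nt, had 27.5, 22.5 and 30.2 TPM. The only other MET transcripts with a mean of at least 1 TPM there were NM_001324401.3 and XM_011516223.2, with 1.18, 0.74 and 1.19 TPM and 1.01, 3.90 and 0.49 TPM. In KHOS the shorter transcript had 5.16, 4.90 and 2.99 TPM and the longer one 25.6, 27.3 and 27.04 TPM. The shorter transcript was therefore high in all 3 HOS-MNNG libraries and low in all 3 KHOS libraries, while the longer one overlapped between the lines.

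The lengths of those transcripts differ by 1214 nt. That is the length of exon 2 of MET, and of no other of the 21 exons of the full-length transcript in the GENCODE annotation of GRCh38 (exon 2 at chr7:116699071-116700284). Exon 2 holds the start codon and 1200 coding bases. The files give lengths and no exon structure, so whether the shorter transcript lacks exon 2 was not tested. The first 90 coding bases of exon 2 are shown with the start codon in capitals, followed by the first 90 bases of exon 15 (chr7:116774881-116774970), both on the plus strand of GRCh38. Exon 15 is shown because MET sequence begins there in the TPR-MET fusion, an activated form that was found in HOS-MNNG, as known from earlier work.
MET exon 2, chr7:116699085-116699174: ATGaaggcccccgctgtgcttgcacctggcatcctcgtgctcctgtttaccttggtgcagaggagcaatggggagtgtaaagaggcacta
MET exon 15: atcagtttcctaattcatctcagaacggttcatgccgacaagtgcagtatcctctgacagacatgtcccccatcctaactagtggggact
TPR-MET itself was not analysed here, and the part of its reads in the values of the shorter transcript was not tested.

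The shorter transcript made up 54.6% ± 2.78 of MET TPM in HOS-MNNG and 12.1% ± 2.47 in KHOS (SD, n = 3 each), or 50.1% and 10.1% of the estimated counts of MET. MET without the shorter transcript was 29.7 ± 2.17 TPM in HOS-MNNG and 31.4 ± 1.75 TPM in KHOS, so those values overlapped (2-sided exact permutation p 0.5). The mean transcript length of MET, weighted by TPM, was 6101 ± 20.2 nt in HOS-MNNG and 6639 ± 66.2 nt in KHOS. All 3 HOS-MNNG values were below all 3 KHOS values (difference -538 nt, 2-sided exact permutation p 0.1, the smallest that 3 against 3 libraries can give). In G292, MG63 and SAOS2 no library had more than 10.7% of MET TPM on the shorter transcript.

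The share was not stable in every line. U2OS had 0% in the first, 1.6e-05% in the second and 51.1% in the third library, and TC71 had 13.7%, 0% and 58.8%. The U2OS libraries held 2152 to 2759 MET counts, so the split differed between libraries of 1 line at moderate depth. HOS-MNNG was the only line of the 13 in which all 3 libraries were above 50%. In the Ewing sarcoma lines the share rested on 65.1 to 881 MET counts per library.

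**Figure D2:**
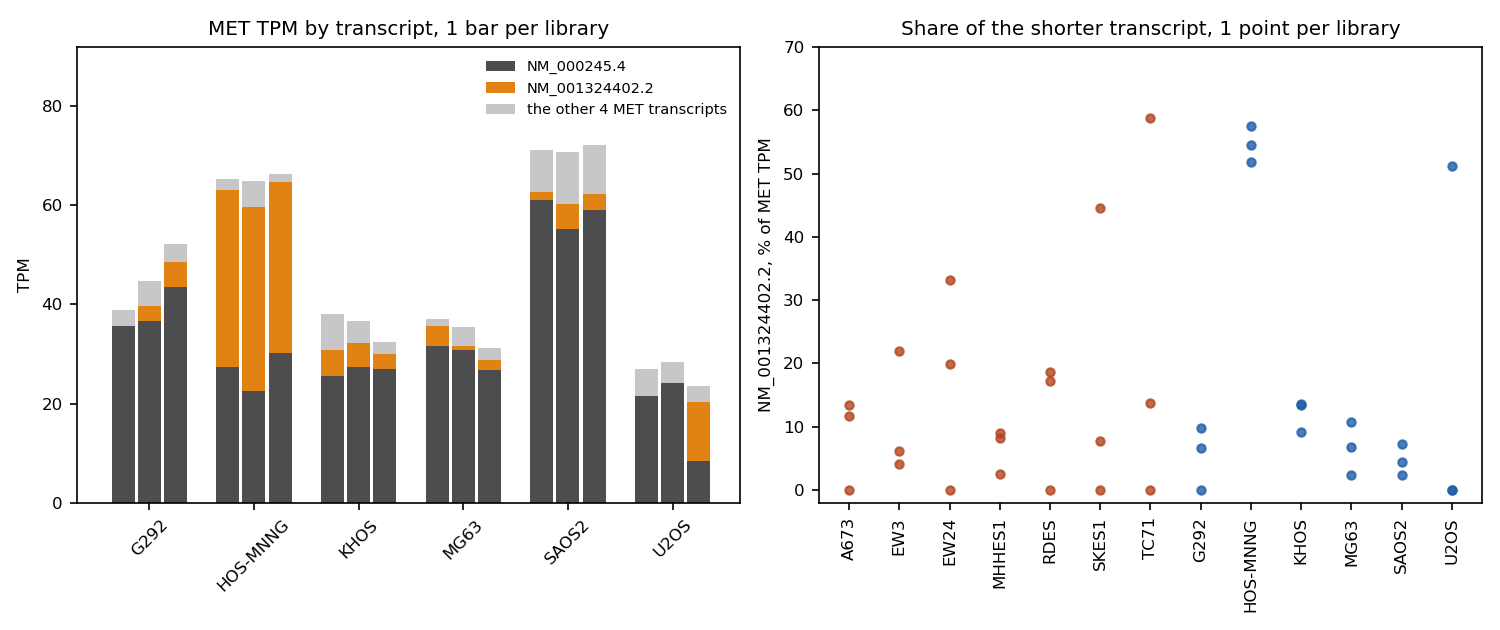
Left, MET TPM in each osteosarcoma library, stacked by transcript from 0; right, the share of NM_001324402.2 in MET TPM for each library of the 13 lines, with Ewing sarcoma in orange and osteosarcoma in blue. The HOS-MNNG libraries sit at 51.9% to 57.5%, and single libraries of TC71, U2OS and SKES1 also reach 58.8%, 51.1% and 44.6%.

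AXL, the receptor of the vitamin K-dependent ligand GAS6, was at a mean of 100.4 TPM or more in every osteosarcoma line. It measured 229, 294 and 269 TPM in SAOS2 and 238, 274 and 239 TPM in U2OS, which overlapped. MG63 had 167 ± 0.684 TPM, HOS-MNNG 157 ± 12.5 TPM, KHOS 136 ± 19.3 TPM and G292 100.4 ± 8.81 TPM. The highest Ewing sarcoma line was A673 with 4.87, 10.6 and 7.43 TPM, the median line had 2.61 TPM and the lowest was TC71 with 0.131 ± 0.0302 TPM. The difference was -6.06 (SE 0.80, FDR 0.00052). Its leading transcript was NM_021913.5 in G292, KHOS, MG63 and SAOS2. NM_001699.6, which is 27 nt shorter, made up 49.5% ± 1.66 of AXL TPM in HOS-MNNG and 48.5% ± 2.07 in U2OS, against 43.9% ± 6.52 and 38.6% ± 13.3 for NM_021913.5. NM_021913.5 led in replicate 3 of HOS-MNNG and replicate 1 of U2OS, so the order was not stable between libraries there.

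PDGFRA and PDGFRB encode the platelet-derived growth factor receptors, which mesenchymal cells use. PDGFRA measured 232, 174 and 155 TPM in MG63 and 170, 118 and 122.6 TPM in G292, whose libraries overlapped. The other osteosarcoma lines had 23.7 ± 3.83 TPM (KHOS), 12.1 ± 2.51 TPM (SAOS2), 10.3 ± 2.84 TPM (HOS-MNNG) and 3.94 ± 1.38 TPM (U2OS). Ewing sarcoma lines had means of 0.0337 to 2.36 TPM, with the highest value in SKES1 and a median of 0.537 TPM. The highest SKES1 library (2.50 TPM) was above the lowest U2OS library (2.47 TPM), so these lines overlapped. PDGFRA was called lower in them (-6.78, SE 1.36, FDR 0.0059). PDGFRB was present in both tumour types. It was highest in MG63 (67.4, 53.2 and 55.9 TPM) and A673 (49.6, 47.4 and 50.2 TPM), whose libraries did not overlap, and next in SKES1 (28.9 ± 2.23 TPM) and G292 (28.9 ± 8.47 TPM), which did. The lowest lines were KHOS (0.948 ± 0.223 TPM) and EW24 (1.35 ± 0.117 TPM). PDGFRB was not called (-0.20, SE 0.93, FDR 0.91), and its sign turned with lines left out (-0.85 to 0.62). A673 thus had PDGFRB at 49.1 ± 1.49 TPM beside PDGFRA at 0.0557 ± 0.0263 TPM.

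EGFR and ERBB4 are receptors of the epidermal growth factor family, EGFR for ligands such as HBEGF and EREG and ERBB4 for neuregulins. EGFR measured 38.4, 37.8 and 40.4 TPM in G292, and KHOS, MG63 and HOS-MNNG overlapped at means of 28.9, 25.9 and 25.1 TPM. SAOS2 had 10.9 ± 0.349 TPM and U2OS 4.17 ± 0.912 TPM. The highest Ewing sarcoma line was A673 with 2.28 ± 0.205 TPM, the median was 0.216 TPM and the lowest was TC71 with 0.00892 ± 0.0044 TPM. EGFR was called lower in Ewing sarcoma (-5.41, SE 1.11, FDR 0.0066). ERBB4 was low in every line. It had 1.68, 1.84 and 2.74 TPM in MHHES1 and 1.86, 2.15 and 0.688 TPM in EW24, which overlapped, and at most 0.427 TPM as the mean of any other line. In osteosarcoma the mean of a line was at most 0.0593 TPM (G292), and KHOS was listed at 0 in all 3 libraries. ERBB4 was called higher in Ewing sarcoma (5.37, SE 1.24, FDR 0.013), though RDES (0.0522 TPM) lay below G292. With an osteosarcoma median of 0.00754 TPM, it could be tested only because Ewing sarcoma lines had counts, so its call is a description.

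KIT encodes the receptor of stem cell factor (KITLG) and acts in blood-forming, germ and pigment cells. It was high in 5 Ewing sarcoma lines: EW3 had 75.4, 77.4 and 72.4 TPM, RDES 57.9, 59.9 and 48.2 TPM, MHHES1 54.6, 45.9 and 49.6 TPM, EW24 36.4 ± 5.25 TPM and SKES1 31.1 ± 3.95 TPM. A673 (5.78 ± 0.431 TPM) and TC71 (3.66 ± 1.67 TPM) were lower. Among the osteosarcoma lines SAOS2 had 58.2, 70.3 and 64.2 TPM, and no other line had a mean above 0.484 TPM. SAOS2 overlapped RDES, so KIT did not separate the tumour types, and it was not called (1.71, SE 1.46, FDR 0.47). Without SAOS2 the difference was 6.81 and was called (FDR 0.0019). That line is singled out for its high KIT, so this value is a description only. The 2-sided exact permutation p over the 13 lines, not adjusted over the 10 genes so tested, was 0.0146. In the lines with over 1000 KIT counts per library, the leading transcript was NM_001093772.2, with 47.8% to 53.3% of KIT TPM. It is 12 nt shorter than NM_000222.3, which had 10.4% to 14.5% in the same lines.

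ALK, a receptor of the developing nervous system, and RET, the signalling receptor of the GDNF family ligands, were mostly low in osteosarcoma. ALK measured 11.8, 14.04 and 13.3 TPM in SKES1, 10.5, 11.1 and 13.3 TPM in MHHES1 and 12.8, 8.15 and 9.63 TPM in the osteosarcoma line G292, and these 3 lines overlapped. EW3, EW24 and TC71 had 2.72 to 3.03 TPM as means, A673 1.58 ± 0.211 TPM and RDES 0.302 ± 0.214 TPM. The osteosarcoma lines other than G292 had 0.0254 to 0.297 TPM. ALK was not called (1.29, SE 1.45, FDR 0.60), but was without G292 (5.998, FDR 0.0067). G292 is singled out for its high ALK, so that value is a description only. RET measured 63.9, 54.04 and 65.1 TPM in A673, 9.72 ± 0.36 TPM in EW3 and 4.32 ± 0.223 TPM in RDES. SKES1 (2.62 ± 0.441 TPM) and MHHES1 (2.30 ± 0.274 TPM) overlapped, TC71 had 1.34 ± 0.103 TPM and EW24 had 0.0135 ± 0.0159 TPM. The osteosarcoma lines had 0.0681 to 0.704 TPM, so EW24 was below all of them and the other 6 Ewing sarcoma lines were above. RET was called higher in Ewing sarcoma (5.64, SE 1.49, FDR 0.024), and without A673 the difference was 3.59 and still called.

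EPHA2, a receptor of membrane-bound ephrin-A ligands, was the most abundant of the 10 in several lines of both types. SAOS2 had 347, 392 and 467 TPM, KHOS 198, 178 and 189 TPM, and the Ewing sarcoma line RDES 134, 125 and 147 TPM. HOS-MNNG had 121 ± 2.98 TPM, A673 94.4 ± 3.21 TPM and MG63 88.1 ± 5.72 TPM. The lowest line was EW3 with 3.25, 5.55 and 5.17 TPM. The tumour types overlapped and EPHA2 was not called by edgeR (-1.72, SE 0.70, FDR 0.12), while DESeq2 called it (FDR 0.033), and the exact permutation p, not adjusted over the 10 genes, was 0.0373.

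**Figure D3:**
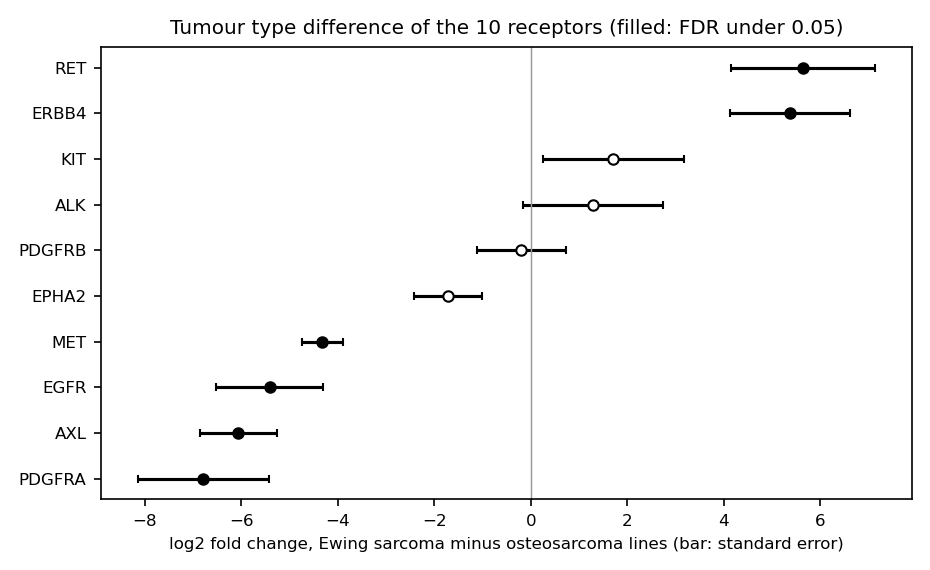
Log2 fold change of each receptor, Ewing sarcoma minus osteosarcoma lines, from edgeR on 13 lines, with the standard error as a bar and filled points for genes called. RET and ERBB4 lie at 5.64 and 5.37, and MET, EGFR, AXL and PDGFRA between -4.32 and -6.78.

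The receptors that were high in osteosarcoma also varied together over the 13 lines. On log2(TPM + 1), Pearson's r was 0.936 between MET and AXL, 0.926 between MET and EGFR, 0.888 between PDGFRA and EGFR, 0.873 between AXL and EGFR, 0.805 between MET and PDGFRA and 0.766 between PDGFRA and AXL. KIT ran against them, with r of -0.694 with EGFR and -0.631 with AXL. These are descriptions over 13 lines that also fall into 2 tumour types, and the points share that split. The genes whose pattern was most like each receptor by the same measure were CDC42EP3 and AK5 for MET (0.972 and 0.971), ITGA3 and CDK6 for AXL (0.983 and 0.975), PGAP4 and CD44 for EGFR (0.971 and 0.966) and WNT5B and MIR31HG for PDGFRA (0.959 and 0.958). HACE1 was most like KIT (0.966), SHISA6 most like RET (0.938), P3H1 most like EPHA2 (0.917), BCAS2 most like ALK (0.881) and POLR2C most like PDGFRB (0.837). ERBB4 did not reach 5 TPM in any line and was left out of this step.

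Set among the 58 receptor tyrosine kinases listed, the 10 receptors made up more of the total in osteosarcoma. Their TPM summed to 385 to 826 in the osteosarcoma lines, of 661 to 1768 for all 58, and to 33.5 to 226 in the Ewing sarcoma lines, of 340 to 913. AXL was the first in HOS-MNNG and U2OS, and EPHA2 the first in KHOS, SAOS2, A673 and RDES. In G292 and MG63 an FGF receptor led (FGFR1 at 160 TPM and FGFR4 at 239 TPM), followed by PDGFRA and AXL. In EW3 and MHHES1 the collagen receptor DDR2 led (242 and 106 TPM), with KIT and EPHA2 second. Of the 48 receptors outside the 10, 44 were tested and 6 were called higher and 5 lower in Ewing sarcoma, against 5.96% higher and 8.4% lower over all genes, with a median of 0.10 against -0.06. The largest were the ephrin receptor EPHA3 (5.57, FDR 0.017), at 5.88 to 61.9 TPM in Ewing sarcoma and at most 1.45 TPM in osteosarcoma, and ROS1 (-7.92, FDR 0.011). The ROS1 value rested on SAOS2 with 75.0 ± 9.09 TPM, where no other line had above 0.929 TPM, and it was -2.52 without SAOS2. IGF1R (-1.27, FDR 0.047) and TIE1 (-5.60, FDR 0.047) lost their calls with single lines left out, and TIE1 was -0.95 without KHOS.

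Ligands and co-receptors were read beside their receptors. Of 31 ligand genes 28 were tested, and 2 were called higher and 5 lower in Ewing sarcoma, against 5.96% and 8.4% of all genes, with a median of -0.36 against -0.06 over all genes. The AXL ligand GAS6 was also lower in the Ewing sarcoma lines: it measured 247 ± 34.6 TPM in MG63, 16.9 to 69.95 TPM in the other osteosarcoma lines and 0.0758 to 3.60 TPM in the Ewing sarcoma lines (-5.88, SE 0.93, FDR 0.0016). Its relative PROS1 was not called (-0.94, FDR 0.26). The MET ligand HGF was at 232 ± 33.2 TPM in MG63 and 5.90 ± 0.861 TPM in G292, and at most 0.126 TPM in the other 11 lines. MG63 is therefore the line in which MET (34.6 TPM) and HGF were both above 10 TPM. KITLG was highest in MG63 (13.9 ± 3.07 TPM), which had little KIT, and 2.56 ± 0.511 TPM in SAOS2.

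Among the EGFR ligands, HBEGF was called lower in Ewing sarcoma (-3.32, FDR 0.031), with 19.6 to 62.6 TPM in osteosarcoma. EREG was also called lower (-4.70, FDR 0.025), but this value was -1.86 and not called (FDR 0.10) without HOS-MNNG, the line with the most EREG (4.01 ± 0.989 TPM). The neuregulin gene NRG2 was lower in Ewing sarcoma (-6.10, FDR 0.0019), and NRG1 was not called (0.85, FDR 0.23). PDGFB was called lower (-4.55, FDR 0.045) and lost the call with single lines left out. For RET, the co-receptor GFRA2 was higher in every Ewing sarcoma line, at 5.63 (EW24) to 111 TPM (EW3) against at most 0.915 TPM in osteosarcoma (6.99, SE 1.26, FDR 0.0034). Its ligand NRTN was called higher as well (3.02, FDR 0.027), as was PSPN (2.17, FDR 0.021), while GDNF was not called (-0.62, FDR 0.75). The co-receptor GFRA1 was called lower (-6.75, FDR 0.028), with 6.57 ± 0.446 TPM in MG63 and at most 0.129 TPM elsewhere, and without MG63 it was -2.28 and not called (FDR 0.13). CD44, a cell surface protein that can present HGF to MET, fell by 7.78 on the log2 scale in Ewing sarcoma (SE 1.62, FDR 0.0074), from 64.8 to 964 TPM in osteosarcoma to 0.0107 to 7.32 TPM.

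**Figure D4:**
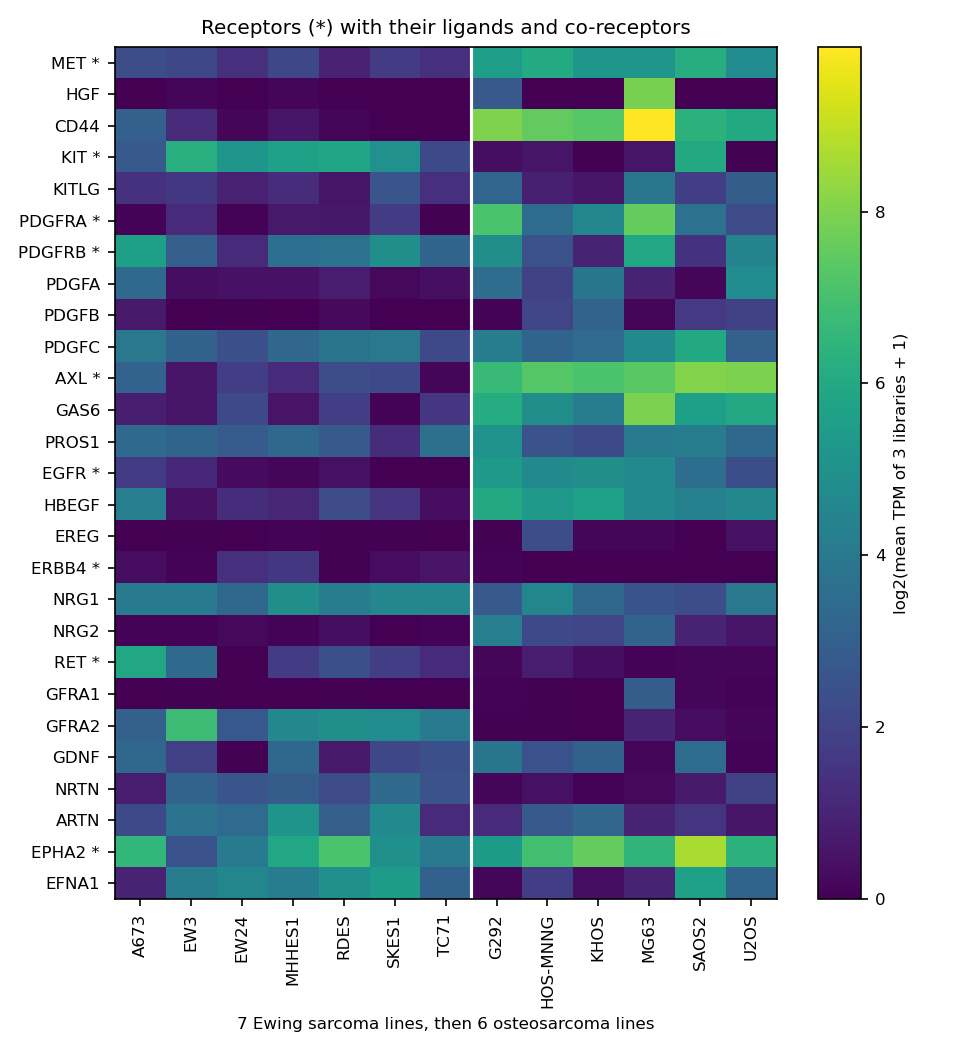
Colour gives log2(mean TPM of 3 libraries + 1) for the receptors, marked with a star, and for their ligands and co-receptors below them, in the 7 Ewing sarcoma lines and then the 6 osteosarcoma lines. AXL and GAS6 are both high in osteosarcoma, GFRA2 is high in Ewing sarcoma, and HGF is at 232 TPM in MG63 only.

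Genes downstream of the receptors were counted too, and over all genes tested 5.96% were called higher and 8.4% lower, with a median of -0.06. Of 16 adaptor and effector genes 1 was called, PIK3R1, a regulatory subunit of PI3K (1.33, FDR 0.013), with a list median of 0.18. Of 13 negative regulators 0 were called higher and 5 lower in Ewing sarcoma: SPRY2, PTPRJ, ERRFI1, SOCS3 and SPRED1, with a list median of -0.88. SPRY2 had 7.67 (U2OS) to 140 TPM (G292) in osteosarcoma and 1.04 to 11.6 TPM in Ewing sarcoma (-3.75, FDR 0.0055). Of 10 ERK pathway output genes 4 were called lower and 0 higher, with a median of -3.78. PHLDA1 (-5.94, FDR 0.0028) and the AP-1 gene FOSL1 (-5.73, FDR 0.005) were the lowest, and EGR1 and IER3 differed by -3.88 and -3.36. FOSL1 measured 42.2 (SAOS2) to 549 TPM (KHOS) in osteosarcoma and 0.602 to 22.6 TPM in Ewing sarcoma. All 10 fold changes were below 0, but DUSP6 (-0.64, FDR 0.76) and ETV5 (-1.19, FDR 0.45) were among those not called. DUSP6 had 0.344 (SAOS2) to 96.3 TPM (HOS-MNNG) in osteosarcoma and 0.456 (EW24) to 98.3 TPM (A673) in Ewing sarcoma.

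RefSeq promoter windows of GRCh38, from 250 bases before to 50 after a gene start, were searched on both strands because the tumour types differ in an ETS fusion and in FOSL1. The 10 genes had 15 windows. The repeat GGAAGGAA was in 0 of them and in 3.67% of 35116 windows of all genes, and the AP-1 letters TGANTCA were in 2, of EGFR and PDGFRA, and in 7.71% of all. A match is a description of letters only.

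HOS-MNNG and KHOS, as descendants of 1 line, were compared as 3 against 3 libraries, where 54.6% of all genes tested were called, 27.5% higher and 27.1% lower in HOS-MNNG. Of the 8 receptors tested, 4 were called higher in HOS-MNNG and 3 lower. PDGFRB measured 3.62, 5.49 and 4.22 TPM in HOS-MNNG and 1.19, 0.746 and 0.911 TPM in KHOS (2.18, SE 0.18, FDR 2.9e-06), without overlap. KIT (3.76, FDR 0.00022) and RET (1.12, FDR 0.0071) were also higher, both below 1 TPM in each line. KIT had 48, 54 and 27 counts in HOS-MNNG and 1, 7 and 1 in KHOS. It thus passed the filter on low counts only through HOS-MNNG, and its call is a description. MET was higher by 0.58 (SE 0.07, FDR 3.6e-05). PDGFRA (-1.22, FDR 0.0015), EPHA2 (-0.80, FDR 1.6e-06) and EGFR (-0.36, FDR 0.0064) were lower. AXL was not called (0.04, FDR 0.79), and ERBB4 and ALK were too low to be tested. EREG was higher in HOS-MNNG (5.12, FDR 6.5e-08), and of other receptors EPHB6 was higher (6.49, 16.97 against 0.177 TPM) and TIE1 lower (-5.54, 0.827 against 33.9 TPM). On the TPM scale the median gene was 0.13 higher in HOS-MNNG on log2, while the count scale had a median near 0.

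In the A673 sh908 cells doxycycline called none of the 10 receptors. Without the replicate number as a block, edgeR called 0.0% of 14252 genes (94 had an unadjusted p under 0.05, and DESeq2 called 2), and with the block 0.512%. The hairpin target KCNN1 was thus called by edgeR only with the block. AXL was nearest to a call. Uninduced libraries had 5.16, 4.36 and 10.2 TPM of it and induced ones 3.65, 2.68 and 5.02 TPM, lower in each of the 3 numbered pairs while the groups overlapped (-0.73, SE 0.27, FDR 1.0, and with the block -0.72, SE 0.14, FDR 0.069). EGFR was at 1.17, 0.764 and 1.79 TPM before and 0.548, 0.713 and 0.996 TPM after induction, also lower in each pair (-0.69, SE 0.30, and -0.68 with the block, FDR 0.18).

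RET, the most abundant of the 10 there, had 64.6, 71.7 and 201 TPM uninduced and 46.4, 69.04 and 183 TPM induced, lower in each pair, with replicate 3 apart from the others in both groups (-0.16, SE 0.47, and with the block -0.20, SE 0.10, FDR 0.42). EPHA2 had 43.7, 33.2 and 37.1 TPM uninduced and 45.6, 40.8 and 44.2 TPM induced, higher in each pair (0.23, SE 0.27, and with the block 0.24, SE 0.089, FDR 0.28). MET, KIT, ALK, PDGFRB and ERBB4 were not called in either fit, and PDGFRA, at most 0.137 TPM in any of the 6 libraries, was not tested. Of the ERK output genes FOSL1 (1.24, FDR 0.0014) and ETV4 (0.66, FDR 0.038) rose with the block and were not called without it. FOSL1 had 21.8, 13.8 and 2.17 TPM uninduced and 45.7, 36.99 and 4.30 TPM induced, higher in each pair.

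Uninduced sh908 cells were set against parental A673 to place those levels. Of all genes 15.1% were called, 8.71% higher and 6.42% lower, and of the 9 receptors tested 1 was called higher and 2 lower. That count of all genes was 2 to 8 without any 1 of the A673 libraries and 10201 without uninduced replicate 3. KIT measured 6.24, 5.73 and 5.38 TPM in the parental line and 1.31, 1.23 and 0.789 TPM in uninduced sh908 cells, without overlap (-1.86, SE 0.36, FDR 0.023). EPHA2 measured 91.5, 97.9 and 93.9 TPM and then 43.7, 33.2 and 37.1 TPM (-0.85, SE 0.22, FDR 0.047). RET was called higher (1.13, SE 0.30, FDR 0.049), but its TPM overlapped, at 63.9, 54.04 and 65.1 in the parental line against 64.6, 71.7 and 201. Without uninduced replicate 3 the RET difference was 0.74 and was called (FDR 6.8e-06). These 3 calls were lost without any 1 of the A673 libraries, and without uninduced replicate 2. On log2 TPM the median gene differed by -0.36 (sh908 minus parental), where the count scale had a median of 0.01. MET was not called (-1.29, FDR 0.18), with 4.08, 3.83 and 4.15 TPM in the parental line and 1.73, 1.15 and 0.412 TPM in sh908 cells. Nor were ERBB4 (-1.40), ALK (-0.84), EGFR (-0.46), PDGFRB (-0.40) and AXL (0.16).

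The transcripts of RET also differed. NM_020975.6, which encodes the long RET51 form, made up 62.8%, 62.4% and 64.0% of RET TPM in parental A673, and 55.1% to 70.4% as the mean of the other Ewing sarcoma lines with over 100 RET counts per library. In uninduced sh908 cells it made up 37.9%, 37.6% and 44.1%, and NM_020630.6, which encodes the shorter RET9 form, 62.1%, 62.4% and 51.7%. With doxycycline NM_020975.6 had 31.4%, 30.4% and 44.9%. The sh908 libraries thus lay below every parental library in this share. Fragment lengths also differed: effective length took 180 to 190 bases off a MET transcript in the parental libraries and 140 to 169 in the sh908 libraries. In MHHES1 it took off 142, 170.02 and 138 bases, and NM_020975.6 made up 76.7%, 71.8% and 62.7% of RET TPM. These MHHES1 shares rest on 138 to 183 RET counts per library, against at least 3507 in the sh908 libraries. The part of fragment length in the share was not tested.

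**Figure D5:**
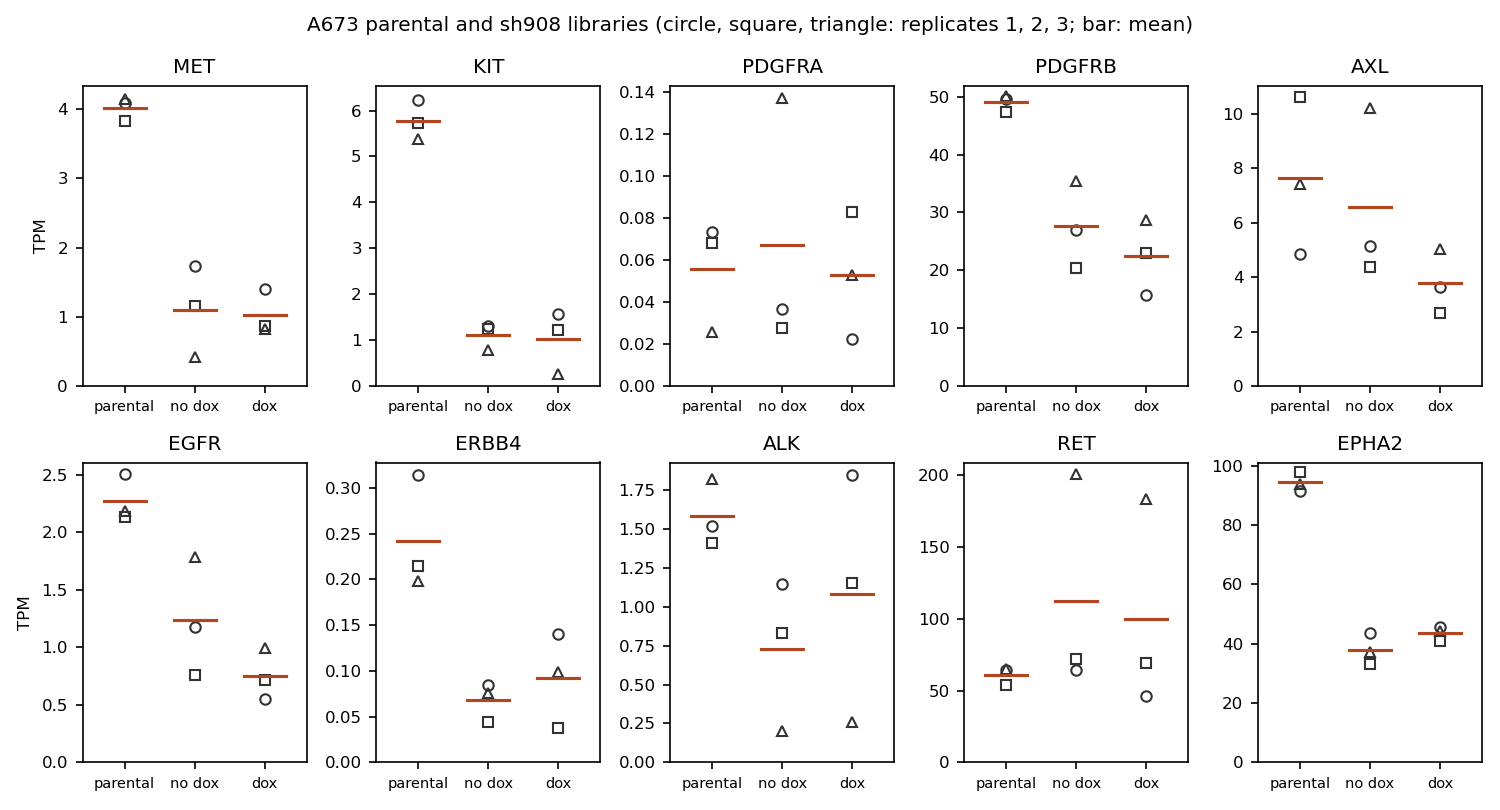
TPM of each receptor from 0 in parental A673, sh908 cells without doxycycline and sh908 cells with doxycycline, with a marker per replicate number and a bar at the mean. KIT and EPHA2 sit below the parental values in all 6 sh908 libraries, and RET replicate 3 is at 201 and 183 TPM.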

How the data were processed

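The submitters' processing notes list fastp 0.19.5 and kallisto 0.46.2, with hg38 and GRCh38.p14 as builds, without their roles. The authors deposited 1 table per library with the estimated counts (expected counts) and the TPM of 177816 RefSeq transcripts, per the file headers. Other deposited values were the transcript length and effective length in nucleotides. Of these transcripts 169966 (95.6%) were joined to 41582 genes by accession, and both quantities were summed per gene.

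Summed counts were rounded, filtered with filterByExpr, scaled by trimmed means of M values and tested with edgeR 4.0.16 (quasi-likelihood, robust) with Benjamini-Hochberg adjustment over all genes. Tumour types were compared over 13 lines after the libraries of a line were summed, and other groups as 3 against 3 libraries. Alternatives were DESeq2 1.42.0, other size factors, no filter, a length offset, left-out samples and a replicate block. Single levels were compared by exact permutation of log2(TPM + 1). Same-numbered sh908 libraries with and without doxycycline deviated together (r of 0.683, 0.582 and 0.881), mostly through replicate 3, and were taken as pairs. Uninduced replicate 1 with induced replicate 2 (r of 0.608) and uninduced 2 with induced 1 (0.517) did so about as much. The values therefore set only replicate 3 apart, and do not show that pairs 1 and 2 are rightly matched. Genes outside the 10 were named as the up to 4 (tumour type) or 2 largest called changes per list and direction, and others are named after their values were seen. The 10 receptors and all lists were chosen with earlier results of these data known. The fits were tested on simulated data. One result is not reported here.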

Additional observations from a re-analysis of the deposited data

Results flagged for a closer look

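Within the lines of a tumour type, 20 groups of line means were examined for a value far from the others, and chance marks about 1 group in 20. KIT in osteosarcoma was marked by SAOS2, whose mean of 64.3 TPM stood against at most 0.484 TPM in the other lines. ALK in osteosarcoma was marked by G292, at 10.2 TPM against at most 0.297 TPM. ERBB4 in osteosarcoma was marked by G292 as well, at 0.0593 TPM against at most 0.0187 TPM, where all lines are near 0.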

How the results depend on the processing

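No call of the 6 receptors called between the tumour types was lost under any alternative run, left-out lines included. Without 1 line or replicate, MET ranged from -4.51 to -4.14, AXL from -6.65 to -5.85, RET from 3.59 to 6.37, and the count of called genes from 2296 to 3177. DESeq2 called 5399 genes between the tumour types, 2 with doxycycline and 4169 between uninduced and parental cells. The replicate block called 73 genes with doxycycline and 319 between uninduced and parental cells, where numbers were not taken as pairs (r of 0.0455 to 0.25) and KIT, RET and EPHA2 had an FDR of 0.051, 0.079 and 0.079. With samples left out, the count with doxycycline was 0 without the block and 7 to 167 with it (pairs left out), and that between uninduced and parental cells was 2 to 10201 without the block. KIT with doxycycline was 0.0066 with size factors by relative log expression and 0.0067 with DESeq2. Signs turned with samples left out for PDGFRB between tumour types (-0.85 to 0.62), for MET (-0.75 to 0.29), KIT (-0.67 to 0.48), ERBB4 (-0.14 to 0.88) and RET (-0.68 to 0.26) with doxycycline, and for AXL between uninduced and parental cells (-0.090 to 0.52) and between HOS-MNNG and KHOS (-0.045 to 0.12). The MET length difference was -500.1 nt weighted by counts and -575 to -510 nt with a library left out. The HOS-MNNG share of the shorter transcript was 50.1% by counts, a setting added after seeing the data, and 53.2% to 56.0% with a library left out. Low members (ERBB4, RET and KIT in most osteosarcoma lines) rest on few counts.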
